A study of Homo sapiens with 12 samples.

Results

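The 7 genes of the classical and related insulin-like growth factor binding proteins, IGFBP1 to IGFBP7, and the 3 receptors of the same system, IGF1R, IGF2R and INSR, were read in RCC4 cells after silencing of the transcriptional coactivator TAZ and after treatment with erastin. The genes were taken by name and every probe set of each was used, which gave 21 of the 19064 probe sets that map to 1 gene, 14 for binding proteins and 7 for receptors, and 10 of 11963 genes. RCC4 is an established clear cell renal carcinoma line; it has no working VHL, and hypoxia-inducible factors are therefore stable in it at normal oxygen. All 12 cultures were RCC4 in serum-containing medium, and each was transfected for 2 days with siRNA against TAZ, the product of WWTR1 (siTAZ), or with a non-targeting siRNA (siNT), and then held for 7 hours in 1 µM erastin or in its vehicle, DMSO. The groups were siTAZ with DMSO, siNT with DMSO, siTAZ with erastin and siNT with erastin, with 3 arrays each. Erastin blocks cystine import and is used to induce ferroptosis, an iron-dependent cell death through lipid peroxidation. One line and 1 siRNA condition against TAZ were used, so an effect of TAZ loss and an effect of that siRNA reagent on other transcripts cannot be told apart.

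IGF1, IGF2 and insulin act through receptor tyrosine kinases. IGF1R and INSR pass the signal through the insulin receptor substrate proteins to PI3K and AKT and through SHC and GRB2 to RAS and ERK, whereas IGF2R, the cation-independent mannose 6-phosphate receptor, takes up IGF2 for lysosomal breakdown and sorts lysosomal enzymes. The binding proteins IGFBP1 to IGFBP6 hold IGFs in the circulation and around cells and either limit or prolong their access to IGF1R, and proteases such as PAPP-A cut them and free the ligand. IGFBP7 binds IGFs weakly and is known as a secreted product of stromal and endothelial cells. Several of these genes are textbook hypoxia or stress responders, IGFBP1 and IGFBP3 among them.

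Upstream windows are shown for the 3 receptors and IGFBP6, which had probe sets that rose, and for IGFBP3, which was bright and was not called. None is printed for IGFBP7. The windows are the 250 bases before the gene start from RefSeq on GRCh38.p14, written 5′ to 3′ on the coding strand in lower case. Of the 10 members, 8 had a window in the table and 7 had 1 window. Capitals mark matches on either strand to GGAATG, the core of TEAD sites through which TAZ binds DNA, to the palindromic E-box CACGTG, and to the hypoxia response cores ACGTG and GCGTG. Each CACGTG also holds ACGTG on both strands. The windows lie at chr15:98648289-98648538 (plus strand) for IGF1R, chr6:159968832-159969081 (plus) for IGF2R, chr19:7294415-7294664 (minus) for INSR, chr12:53097417-53097666 (plus) for IGFBP6 and chr7:45921273-45921522 (minus) for IGFBP3.
IGF1R: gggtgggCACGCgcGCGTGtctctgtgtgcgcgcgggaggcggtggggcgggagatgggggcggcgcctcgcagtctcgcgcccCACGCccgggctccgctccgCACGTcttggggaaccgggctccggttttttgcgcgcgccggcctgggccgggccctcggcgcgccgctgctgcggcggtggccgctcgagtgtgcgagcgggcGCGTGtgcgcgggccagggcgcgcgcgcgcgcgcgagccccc
IGF2R: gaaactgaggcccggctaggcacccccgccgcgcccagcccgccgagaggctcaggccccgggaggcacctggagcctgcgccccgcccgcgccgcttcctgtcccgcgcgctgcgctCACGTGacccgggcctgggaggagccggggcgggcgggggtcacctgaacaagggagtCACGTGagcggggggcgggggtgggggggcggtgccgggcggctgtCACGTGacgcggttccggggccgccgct
INSR: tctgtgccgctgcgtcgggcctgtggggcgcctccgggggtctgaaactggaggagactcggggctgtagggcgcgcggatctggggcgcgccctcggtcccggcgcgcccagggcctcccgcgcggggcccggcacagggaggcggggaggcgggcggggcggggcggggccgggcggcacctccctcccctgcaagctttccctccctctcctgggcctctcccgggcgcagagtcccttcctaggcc
IGFBP6: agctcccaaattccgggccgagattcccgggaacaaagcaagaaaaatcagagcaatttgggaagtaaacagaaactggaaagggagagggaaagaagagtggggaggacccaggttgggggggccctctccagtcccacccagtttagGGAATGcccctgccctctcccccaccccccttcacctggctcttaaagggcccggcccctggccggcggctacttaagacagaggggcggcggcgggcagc
IGFBP3: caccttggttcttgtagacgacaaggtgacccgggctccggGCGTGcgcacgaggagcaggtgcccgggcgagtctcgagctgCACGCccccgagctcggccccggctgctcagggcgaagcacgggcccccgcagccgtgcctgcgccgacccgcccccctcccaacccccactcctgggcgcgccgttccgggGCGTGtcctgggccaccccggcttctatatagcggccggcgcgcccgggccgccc
The IGF2R window held CACGTG 3 times, starting 132, 74 and 28 bases before the gene start, and 6.34% of all 35116 windows held this motif at least once. GGAATG was found once in the IGFBP6 window, 101 bases before the start, and once in the window of IGFBP5, a gene not called in any comparison, 235 bases before its start; 11.9% of all windows held it. The IGF1R window held ACGTG once and GCGTG 4 times, and the IGFBP3 window held GCGTG 3 times, against 18.5% of all windows with ACGTG and 32.2% with GCGTG. None of these letters occurred in the INSR window. The shares count windows with at least 1 match and were not matched for base composition, so they do not show enrichment. The GC content was 81.2% for IGF1R, 79.2% for IGF2R, 78.4% for INSR, 76.0% for IGFBP3 and 61.2% for IGFBP6. A match here is a run of letters and not a shown binding site, and the absence of one says only that the letters are not in these 250 bases.

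The silencing was visible in every siTAZ group. WWTR1 averaged 9.34 ± 0.11 in siTAZ cells and 12.29 ± 0.05 in siNT cells in vehicle on the log2 signal scale (SD, n = 3 each), a log2 difference of -2.94 ± 0.07 (SE), and the difference under erastin was -3.12 ± 0.07. YAP1, its paralog, differed by -0.02 ± 0.07 in vehicle and by -0.01 ± 0.07 under erastin. Clear cell renal carcinoma markers averaged 8.20 to 13.53 for 9 of 11 listed genes on the array, with VIM the brightest. Liver markers, liver being the main source of circulating IGFBP1 and IGF1, averaged 3.20 to 6.21 over 6 genes, endothelial markers 3.29 to 5.94 over 5 genes, leukocyte markers 2.64 to 5.52 over 4 of 6 genes and fibroblast markers 2.31 to 7.43 over 7 genes, with COL1A1 the highest of these. Array medians lay between 6.48 and 6.54 and arrays of 1 group correlated at 0.9955 to 0.9985. The actin 3′ minus 5′ signal, a measure of RNA integrity and labelling, averaged 2.65 ± 0.04 in siTAZ and 2.68 ± 0.28 in siNT cells in vehicle, and 3.25 ± 0.33 in siTAZ and 2.26 ± 0.69 in siNT cells under erastin (SD, n = 3 each). It differed most between siTAZ and siNT cells under erastin, and values with it as a covariate are given where they end the call of a gene named here. The GAPDH 3′ minus 5′ signal did not show this gap. In vehicle it averaged 0.20 ± 0.07 in siTAZ and 0.18 ± 0.07 in siNT cells. Under erastin it averaged 0.20 ± 0.06 in siTAZ and 0.15 ± 0.08 in siNT cells (SD, n = 3 each).

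IGF1R, IGF2R, INSR, IGFBP6 and IGFBP7 each had at least 1 probe set that rose after TAZ silencing both in vehicle and under erastin. Under erastin a dim INSR probe set fell and the brightest IGFBP7 probe set did not pass. The rises were between 0.24 and 0.55 log2 units on the probe sets that passed, a fold of 1.18 to 1.47. IGFBP3, the brightest IGFBP, did not pass in either setting, and IGFBP1, IGFBP2, IGFBP4 and IGFBP5 were dim in every group. In limma with Benjamini-Hochberg adjustment over all 19064 probe sets, called at an adjusted p under 0.05, 8 of 21 member probe sets rose and 0 fell in vehicle, and 7 rose and 1 fell under erastin. Over all probe sets 12.6% rose and 11.7% fell in vehicle, and 13.1% rose and 11.5% fell under erastin, against 38.1% and 33.3% of the member probe sets that rose. Probe sets of 1 gene are not independent members. By the brightest probe set of each gene, 2 of 7 IGFBP genes and 3 of 3 receptor genes rose in vehicle. Under erastin 1 of 7 and 3 of 3 rose. Of all 11963 genes, 1661 rose in vehicle and 1751 under erastin. The median log2 difference of the members was 0.10 in vehicle and 0.04 under erastin, against medians of -0.01 and 0.00 over all probe sets. It was 0.39 and 0.31 over the 7 receptor probe sets, and 0.06 and 0.00 over the 14 IGFBP probe sets. The same 7 member probe sets rose in both settings, as did 9.56% of all probe sets. Every siTAZ array lay above every siNT array for 9 members and below for 1 in vehicle (20.1% and 21.1% of all probe sets), and above for 6 and below for 2 under erastin (19% and 17.2%). Over both treatments together, 6 members had all 6 siTAZ arrays above all 6 siNT arrays, as did 11.3% of all probe sets.

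All member probe sets that rose were among the brighter ones. The 10 member probe sets over the median signal of all probe sets, 6.71, averaged at least 8.06, and the other 11 averaged at most 5.43. Of the 10 brighter ones, 8 rose in vehicle and 7 under erastin, where 20.1% and 20.4% of all probe sets over the median did. Of the 11 dimmer ones 0 rose in either setting, where 5.08% and 5.76% of all dimmer probe sets did. The member probe set that fell under erastin, INSR 207851_s_at, was among the dimmer ones, and both IGFBP3 probe sets, which did not pass, were among the brighter ones. A missing call among the dimmer probe sets does not show that the transcript did not change.

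**Figure D1:**
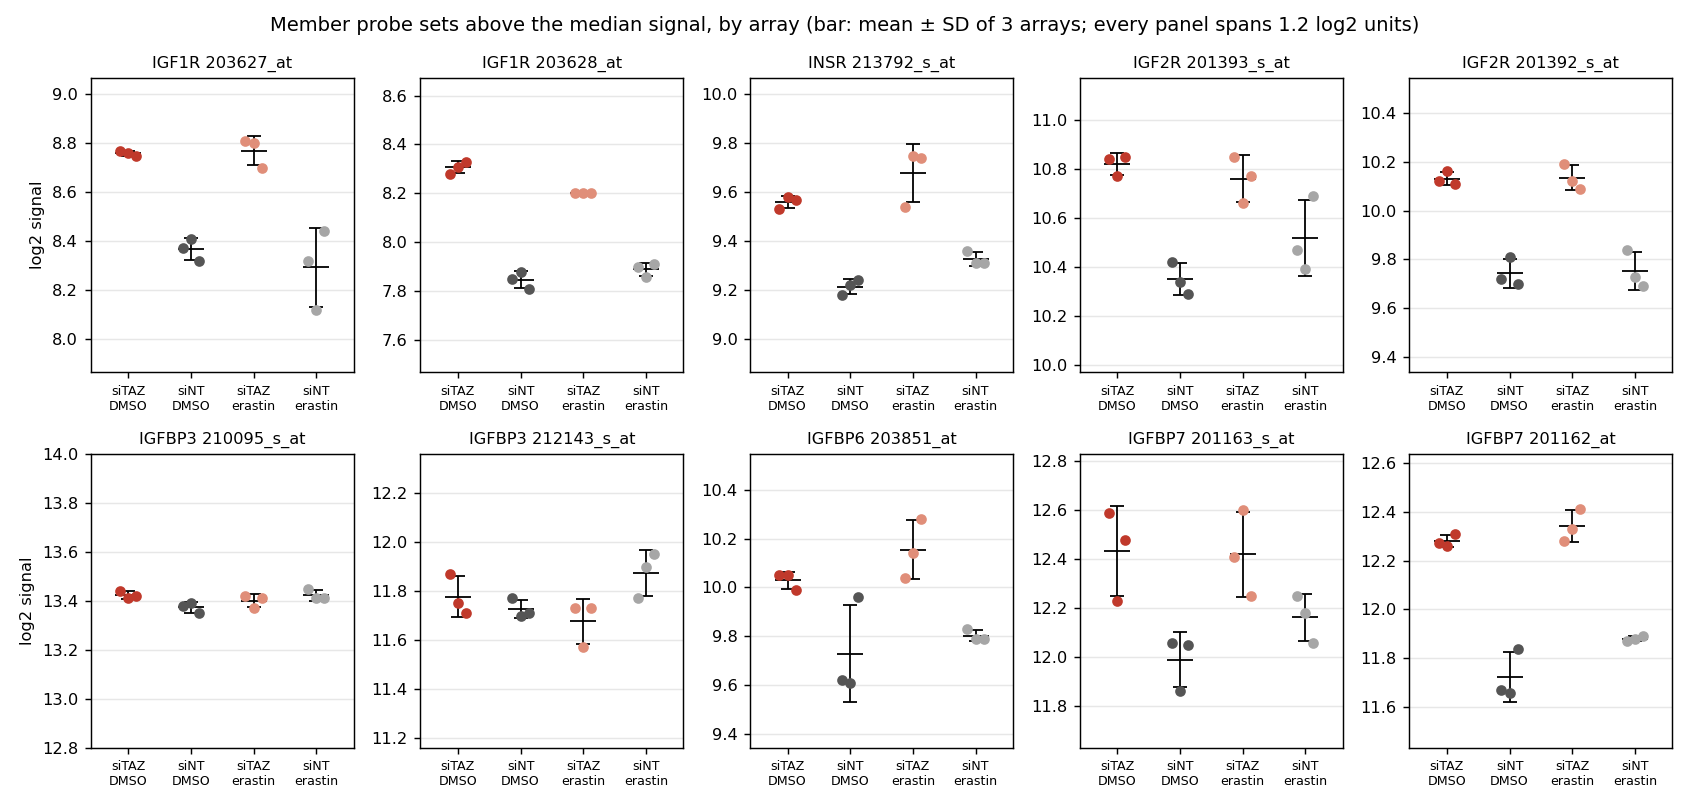
Log2 signal of the 10 member probe sets over the median signal, 1 panel each, with a point per array, the mean and the SD of 3 arrays for siTAZ and siNT cells in vehicle and under erastin; each panel spans 1.2 log2 units. The siTAZ arrays lie above the siNT arrays for both bright IGF1R probe sets, IGF2R 201392_s_at, INSR 213792_s_at, IGFBP7 201162_at and, narrowly in vehicle, IGFBP6 203851_at in both treatments. The IGFBP3 probe set 210095_s_at is level.

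IGF1R, the signalling receptor for IGF1 and IGF2, was read by 2 bright probe sets and both rose. Probe set 203627_at gave 8.77, 8.76 and 8.75 in siTAZ cells and 8.37, 8.41 and 8.32 in siNT cells in vehicle. Under erastin it gave 8.81, 8.80 and 8.70 in siTAZ cells and 8.32, 8.12 and 8.44 in siNT cells. Every siTAZ array was above every siNT array in each treatment. The log2 difference was 0.39 ± 0.08 (SE; limma adjusted p = 0.00212) in vehicle and 0.48 ± 0.08 (limma adjusted p = 0.000532) under erastin. Probe set 203628_at gave 8.28, 8.31 and 8.33 in siTAZ cells and 7.85, 7.88 and 7.81 in siNT cells in vehicle, a difference of 0.46 ± 0.05 (limma adjusted p = 2.26e-05). Under erastin it gave 8.20 on each siTAZ array and 7.90, 7.86 and 7.91 in siNT cells, a difference of 0.31 ± 0.05 (limma adjusted p = 0.000537). The groups again did not overlap. The dim probe set 208441_at averaged 4.37 over all arrays and differed by 0.08 in vehicle and 0.05 under erastin, neither called.

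IGF2R, the scavenging receptor for IGF2, rose on both of its probe sets. Probe set 201392_s_at gave 10.12, 10.16 and 10.11 in siTAZ cells and 9.72, 9.81 and 9.70 in siNT cells in vehicle, and 10.19, 10.12 and 10.09 in siTAZ cells and 9.84, 9.73 and 9.69 in siNT cells under erastin. The siTAZ and siNT arrays were apart in both treatments, by 0.39 ± 0.06 (limma adjusted p = 0.000388) in vehicle and 0.38 ± 0.06 (limma adjusted p = 0.000476) under erastin. The brighter probe set 201393_s_at gave 10.84, 10.77 and 10.85 in siTAZ cells and 10.42, 10.34 and 10.29 in siNT cells in vehicle, a difference of 0.47 ± 0.08 (limma adjusted p = 0.000846). Under erastin it gave 10.85, 10.66 and 10.77 in siTAZ cells and 10.47, 10.39 and 10.69 in siNT cells, and here the groups overlapped, because siNT replicate 3 reached 10.69. That difference was 0.24 ± 0.08 (limma adjusted p = 0.0428). It was lost without siNT erastin replicate 1 (0.22, adjusted p = 0.122), siNT erastin replicate 2 (0.18, 0.15), siTAZ erastin replicate 1 (0.20, 0.152) or siTAZ erastin replicate 3 (0.24, 0.1), with array medians centred (0.20, 0.0753) and with only those 2 groups fitted (0.24, 0.129), while an actin 3′ minus 5′ covariate gave 0.45 (0.00258).

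INSR, the insulin receptor, was read by a bright and a dim probe set that moved in opposite directions under erastin. The bright one, 213792_s_at, gave 9.53, 9.58 and 9.57 in siTAZ cells and 9.18, 9.22 and 9.24 in siNT cells in vehicle, and 9.54, 9.75 and 9.74 in siTAZ cells and 9.36, 9.31 and 9.31 in siNT cells under erastin. It rose by 0.35 ± 0.06 in each setting (limma adjusted p = 0.00137 in vehicle and 0.00138 under erastin), with no overlap between groups. The dim one, 207851_s_at, gave 5.26, 5.25 and 5.28 in siTAZ cells and 5.33, 5.29 and 5.36 in siNT cells in vehicle, and 5.13, 5.15 and 5.19 in siTAZ cells and 5.40, 5.31 and 5.44 in siNT cells under erastin. All 6 siTAZ arrays were below all 6 siNT arrays, as for 10.1% of all probe sets, but the difference was -0.06 ± 0.05 (limma adjusted p = 0.506) in vehicle and -0.23 ± 0.05 (limma adjusted p = 0.00745) under erastin. The call under erastin was lost with an intensity trend and robust variances (adjusted p = 0.0719), with only the 2 groups fitted (0.0514) and with the actin covariate (-0.20, 0.0907). The mean of both INSR probe sets differed by 0.14 in vehicle (limma adjusted p = 0.0532) and by 0.06 under erastin (0.457), so the INSR rise rests on 213792_s_at alone.

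**Figure D2:**
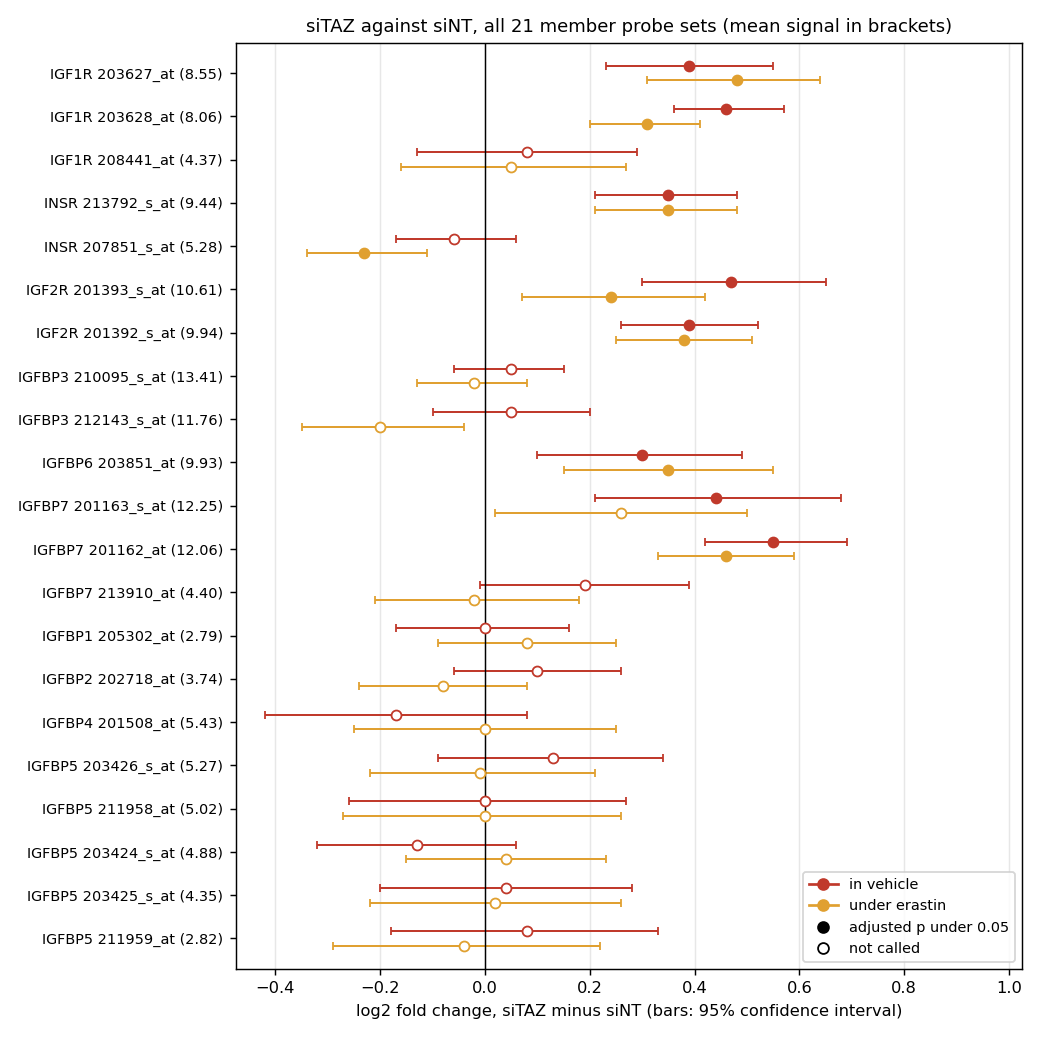
Log2 difference of siTAZ minus siNT with its 95% confidence interval for each of the 21 member probe sets, in vehicle and under erastin; filled points passed an adjusted p under 0.05. Filled points above 0 belong to IGF1R, IGF2R, INSR, IGFBP6 and IGFBP7, and the one filled point below 0 is the dim INSR probe set under erastin.

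Among the binding proteins IGFBP7 changed most. Probe set 201162_at gave 12.27, 12.26 and 12.31 in siTAZ cells and 11.67, 11.66 and 11.84 in siNT cells in vehicle, and 12.28, 12.33 and 12.41 in siTAZ cells and 11.87, 11.88 and 11.89 in siNT cells under erastin. The groups were apart in each treatment, by 0.55 ± 0.06 (limma adjusted p = 3.33e-05) in vehicle and 0.46 ± 0.06 (limma adjusted p = 0.000149) under erastin. The brightest IGFBP7 probe set, 201163_s_at, spread more, with 12.59, 12.23 and 12.48 in siTAZ cells and 12.06, 11.86 and 12.05 in siNT cells in vehicle, a difference of 0.44 ± 0.11 (limma adjusted p = 0.00917). Under erastin it gave 12.41, 12.60 and 12.25 in siTAZ cells and 12.25, 12.18 and 12.06 in siNT cells, a difference of 0.26 ± 0.11 with overlapping groups that did not pass (limma adjusted p = 0.109). The mean of the 3 IGFBP7 probe sets did pass under erastin, at 0.23 (limma adjusted p = 0.00517). The dim probe set 213910_at averaged 4.40 and differed by 0.19 ± 0.09 in vehicle (limma adjusted p = 0.164) and -0.02 under erastin.

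IGFBP6, which prefers IGF2 over IGF1, rose on its only probe set, less firmly than IGFBP7. It gave 10.05, 10.05 and 9.99 in siTAZ cells and 9.62, 9.61 and 9.96 in siNT cells in vehicle, and 10.04, 10.14 and 10.28 in siTAZ cells and 9.83, 9.79 and 9.79 in siNT cells under erastin. The groups did not overlap, though siNT replicate 3 in vehicle lay just under the siTAZ arrays. The difference was 0.30 ± 0.09 (limma adjusted p = 0.0309) in vehicle and 0.35 ± 0.09 (limma adjusted p = 0.0132) under erastin. In vehicle the call was lost without siNT DMSO replicate 1 (0.24, adjusted p = 0.124) or 2 (0.24, 0.123), without siTAZ DMSO replicate 1 (0.29, 0.0846), 2 (0.28, 0.087) or 3 (0.32, 0.057), with array medians centred (0.27, 0.0525) and with only those 2 groups fitted (0.30, 0.0509), and it was 0.41 (0.00202) without siNT DMSO replicate 3. Under erastin it was lost without siTAZ erastin replicate 3 (0.29, 0.0598) and with the actin covariate (0.26, 0.191).

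IGFBP3, the main IGF carrier of serum, was among the brightest genes on the array but showed no called change. Probe set 210095_s_at averaged 13.41, above 99.6% of all probe sets, and its 12 values spanned 0.09 log2 units. Values were 13.44, 13.41 and 13.42 in siTAZ cells and 13.38, 13.39 and 13.35 in siNT cells in vehicle, and 13.42, 13.37 and 13.41 in siTAZ cells and 13.45, 13.41 and 13.41 in siNT cells under erastin. The 95% confidence interval of the difference was -0.06 to 0.15 in vehicle and -0.13 to 0.08 under erastin. Whether this probe set still responds in proportion at so high a level was not tested. The second probe set, 212143_s_at, gave 11.87, 11.75 and 11.71 in siTAZ cells and 11.77, 11.70 and 11.71 in siNT cells in vehicle, a difference of 0.05 ± 0.07. Under erastin it gave 11.73, 11.57 and 11.73 in siTAZ cells and 11.77, 11.90 and 11.95 in siNT cells, where every siTAZ array was lower, by -0.20 ± 0.07 (limma adjusted p = 0.0608). That value passed with array medians centred (-0.24, 0.0261), a 25th percentile filter (0.0389), an intensity trend (0.0112) or without siNT erastin replicate 1 (-0.25, 0.0359), and was -0.05 (0.707) with the actin covariate.

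The remaining IGFBPs were low. IGFBP1, a liver and decidual protein, averaged 2.79, at percentile 3.14 of all probe sets. IGFBP2, which is abundant in fetal tissues, averaged 3.74, at percentile 12.8. IGFBP4, an inhibitory IGFBP, averaged 5.43 on its probe set, at percentile 35.1. The 5 probe sets of IGFBP5, a binding protein of bone and muscle, averaged 2.82 to 5.27. None of these probe sets was called in any of the 5 comparisons.

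Few probe sets passed for erastin against vehicle, and no member did, which at these shares is not a result about the members. In siTAZ cells 0 of 21 member probe sets passed against vehicle, and 0.294% of all probe sets did. In siNT cells 0 of 21 passed, and 0.372% of all probe sets did. At an unadjusted p under 0.05, 2 members were found in siTAZ cells, where 9.04% of all probe sets were, and 2 in siNT cells, where 8.82% were. The 2 in siTAZ cells were IGF1R 203628_at, which differed by -0.11 ± 0.05 (limma adjusted p = 0.546), with all 3 erastin arrays below the DMSO arrays, and IGFBP2, which differed by -0.19 (limma adjusted p = 0.504). The 2 in siNT cells were IGFBP7 201162_at, at 0.16 (limma adjusted p = 0.471), with all erastin arrays above the DMSO arrays, and the dim IGFBP7 213910_at, at 0.23. Groups did not overlap for 1 higher and 3 lower members in siTAZ cells (10% and 9.68% of all probe sets) and for 4 higher and 0 lower members in siNT cells (5.52% and 7.45%). IGFBP3 212143_s_at was higher under erastin on every siNT array, by 0.15 ± 0.07, but did not pass (limma adjusted p = 0.577).

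No member was called for a difference in the effect of silencing between treatments. The interaction of siTAZ and erastin had 0 called member probe sets, as it had 0 called among all 19064. At an unadjusted p under 0.05 there were 3 members, where 6.1% of all probe sets were found, namely IGF1R 203628_at at -0.15, IGFBP3 212143_s_at at -0.25 ± 0.10 (95% confidence interval -0.47 to -0.03) and INSR 207851_s_at at -0.17, each with a limma adjusted p of 0.799. The siTAZ comparison in vehicle and the one under erastin use separate arrays but share the same estimate of the spread. The interaction takes the difference of both comparisons.

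**Figure D3:**
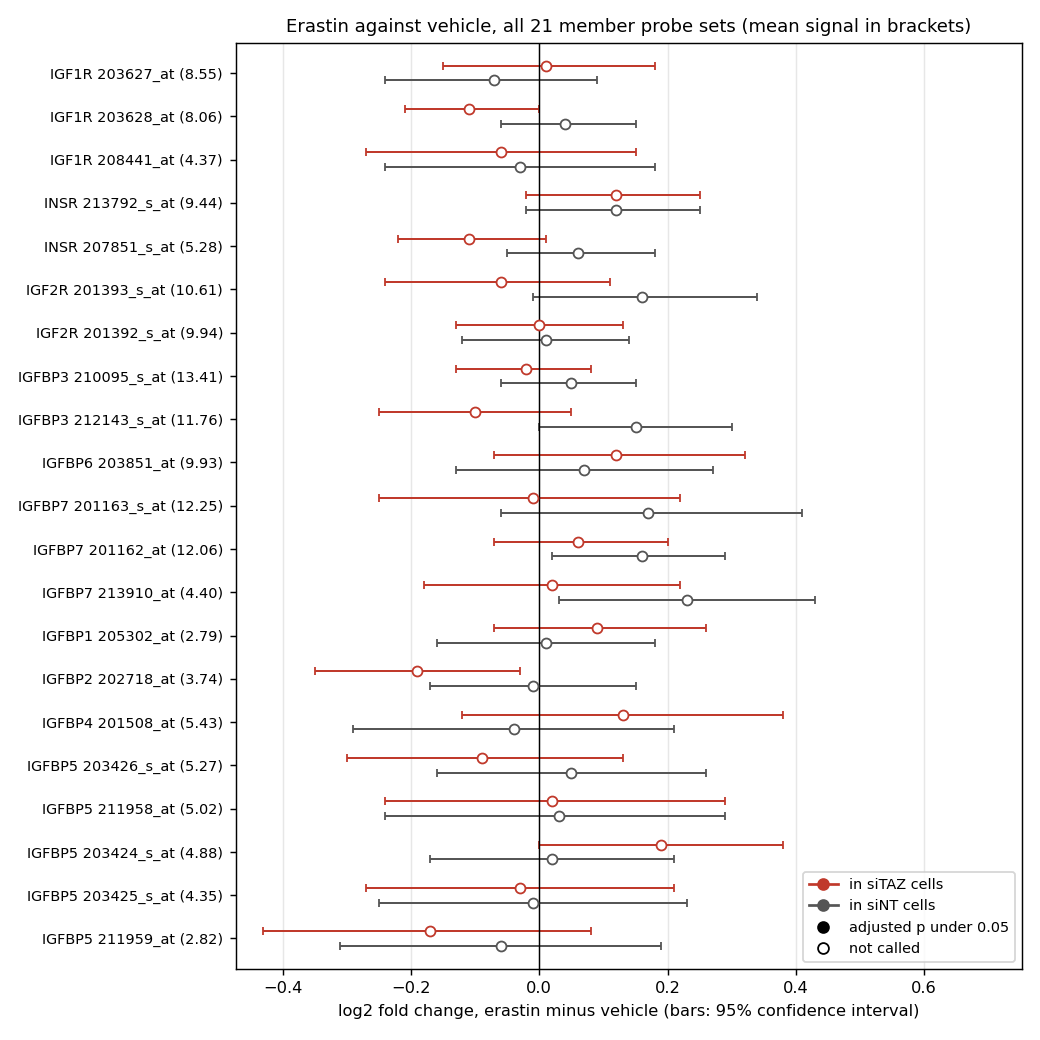
Log2 difference of erastin minus vehicle with its 95% confidence interval for each of the 21 member probe sets, in siTAZ and in siNT cells. No point is filled, since 0 of 21 passed an adjusted p under 0.05 in either cell state.

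Of the ligands, IGF1 and INS were read, both at low signal, and IGF2 was not analysed here because its probe sets are listed for several genes. IGF1 averaged 5.02 ± 0.07 in siTAZ cells and 5.19 ± 0.04 in siNT cells in vehicle, and INS averaged 3.93 ± 0.15 and 3.84 ± 0.16 there (SD, n = 3 each), and neither was called in any comparison. The genes were read from their brightest probe set, and 26.9% of all genes were called in vehicle and 26.4% under erastin. Of all 11963 genes, 1661 rose and 1557 fell in vehicle, and 1751 rose and 1408 fell under erastin. In both settings, 33.3% of the IGFBP proteases and inhibitors below were called, 44.4% of the IGFBP-related proteins and 53.8% of the substrates and adaptors.

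Among 18 measured IGFBP proteases and their inhibitors, 3 rose and 3 fell in vehicle, and 3 rose and 3 fell under erastin, with a median log2 difference of 0.01 and 0.04 against -0.01 and 0.01 over all genes. HTRA1, a secreted serine protease that cuts IGFBP5, averaged 9.99 ± 0.04 in siTAZ cells and 9.34 ± 0.01 in siNT cells in vehicle (SD, n = 3 each), a rise of 0.65, and rose by 0.62 under erastin. STC2, a stanniocalcin that inhibits the protease PAPP-A, averaged 9.27 ± 0.08 in siTAZ cells and 10.50 ± 0.03 in siNT cells in vehicle, a difference of -1.23, and the difference under erastin was -0.75. STC1, its paralog, differed by -0.54 in vehicle and -0.38 under erastin, and MMP1, a collagenase, by -0.62 and -0.46. CTSD, the lysosomal protease cathepsin D, rose by 0.32 in vehicle and ADAM12, a membrane metalloprotease, by 0.24, whereas they differed by 0.06 and 0.07 under erastin and were not called; a dimmer ADAM12 probe set rose by 0.66 in vehicle and 0.49 under erastin. MMP7 rose by 0.58 and MMP9 by 0.29 under erastin, against uncalled differences of 0.27 and 0.02 in vehicle. The interaction of siTAZ and erastin was not called for CTSD (-0.26), ADAM12 (-0.17), MMP7 (0.31) or MMP9 (0.27). The limma adjusted p was 0.799 for each, so a difference between treatments is not shown for these genes. MMP7 passed in vehicle without siNT DMSO replicate 3 (0.36, limma adjusted p = 0.0469), and under erastin it lost its call with the actin covariate (0.39, adjusted p = 0.097). PAPPA, the IGFBP4 protease that stanniocalcins inhibit, was dim and differed by 0.02 in vehicle and -0.06 under erastin. STC2 was also one of few listed genes that erastin changed, with a rise of 1.25 in siTAZ cells and of 0.77 in siNT cells. Its interaction of siTAZ and erastin was 0.48 ± 0.09 and was not called (limma adjusted p = 0.442). It passed with an intensity trend and robust variances (limma adjusted p = 0.0223).

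Of 9 measured IGFBP-related proteins and partners of the ternary complex, 2 rose and 2 fell in both settings. The CCN proteins share an IGFBP-like domain. CCN3 rose by 0.99 in vehicle and 1.08 under erastin and CCN5 by 0.86 and 0.62. CCN2 and CCN1, textbook targets of YAP and TAZ, fell by 0.63 and 0.27 in vehicle, and by 0.58 and 0.38 under erastin. CCN2 lost its call under erastin with the actin covariate (-0.41, limma adjusted p = 0.0503). IGF2BP3, an RNA-binding protein that binds IGF2 mRNA, rose by 0.34 in each setting.

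Among 13 measured insulin receptor substrates and adaptors, which sit directly below IGF1R and INSR, 3 rose and 4 fell in both settings, beside the rises of the receptor probe sets. IRS2, a substrate that links the receptors to PI3K, averaged 9.87 ± 0.08 in siTAZ cells and 11.48 ± 0.12 in siNT cells in vehicle, and 10.06 ± 0.10 in siTAZ cells and 11.44 ± 0.14 in siNT cells under erastin (SD, n = 3 each). The difference was -1.61 ± 0.09 in vehicle and -1.37 under erastin, and its second probe set gave -1.68 and -1.31. IRS1, the other main substrate, differed by -0.04 and 0.12 and was not called. GRB10, an adaptor that dampens both receptors, fell by 0.75 in vehicle and 0.64 under erastin on its brightest probe set; of its other 3 probe sets, 2 fell in vehicle (-0.37 and -0.32) and 0 passed under erastin. SHC1, which carries the signal to RAS, fell by 0.48 and 0.49, and GAB1, a docking protein, by 0.31 and 0.21. GRB2, the adaptor that brings SOS to the receptors, rose by 0.77 and 0.83, SOS2, an exchange factor for RAS, by 1.29 and 1.11, and SH2B2 by 0.39 and 0.27. The other SOS2 probe sets gave 0.02 to 0.71 in vehicle. Under erastin the GAB1 call was lost without any single array other than siTAZ replicate 3 (-0.17 to -0.21), and the SH2B2 call without siNT replicate 3 (0.18), siTAZ replicate 1 (0.25) or siTAZ replicate 2 (0.24); with the actin covariate GAB1 differed by -0.19 (limma adjusted p = 0.223) and SH2B2 by 0.15 (0.413). In vehicle the mean of the GAB1 probe sets was -0.11 and did not pass.

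**Figure D4:**
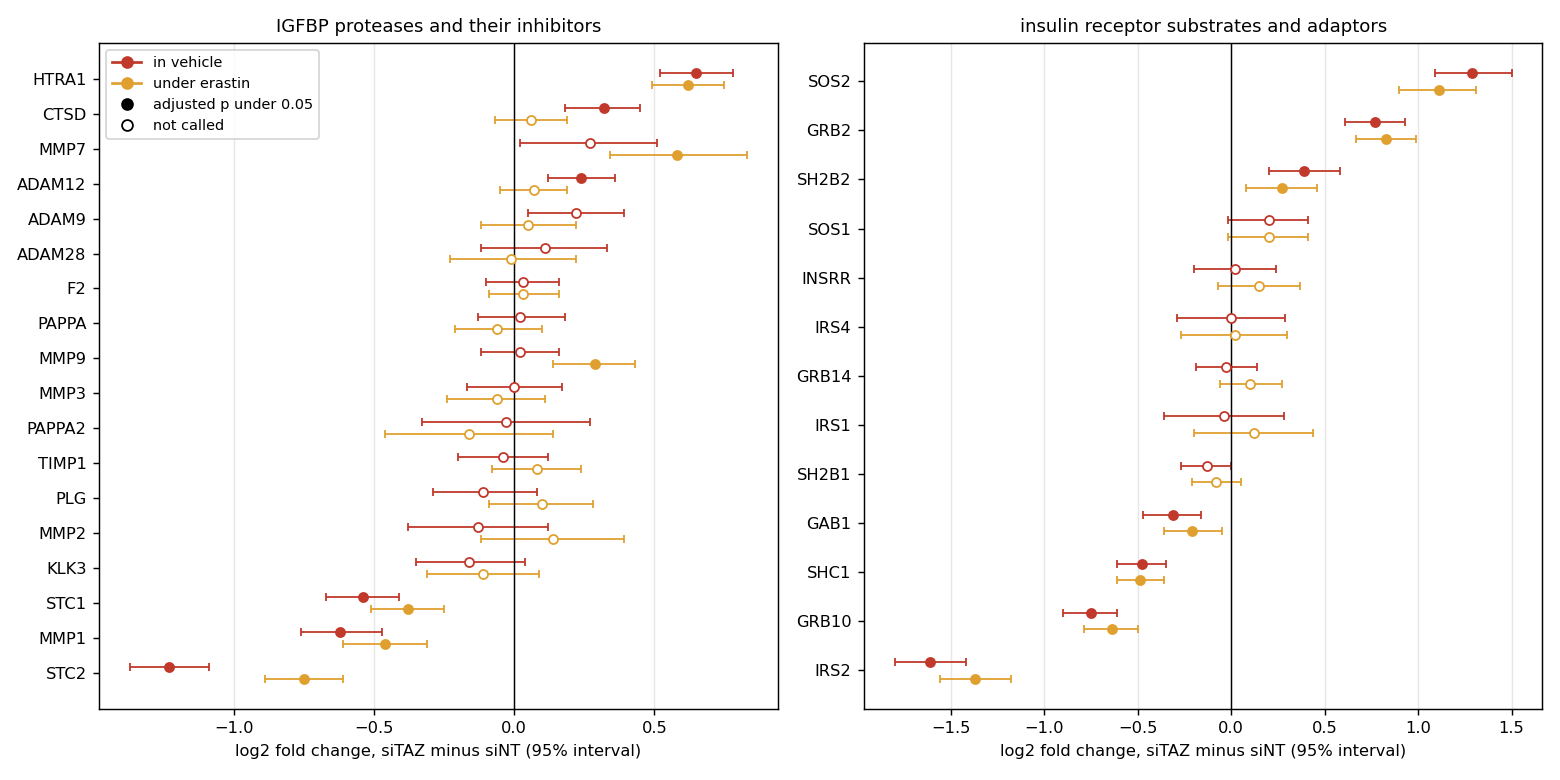
Log2 difference of siTAZ minus siNT with its 95% confidence interval for the measured IGFBP proteases and their inhibitors and for the receptor substrates and adaptors, each gene by its brightest probe set, in vehicle and under erastin; filled points passed an adjusted p under 0.05. IRS2 and STC2 lie farthest below 0 and SOS2 farthest above.

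Further downstream, 3 of 16 measured genes of the PI3K, AKT and mTOR chain rose and 4 fell in vehicle, and 3 rose and 3 fell under erastin. Called shares in vehicle and under erastin were 43.8% and 37.5% here and 40% and 20% in the RAS and ERK chain. They were 64.7% in both for the inhibitors, 46.7% and 33.3% for the FOXO list, and 40% and 30% for the IGFBP partners. Over all genes 26.9% were called in vehicle and 26.4% under erastin. The regulatory subunit genes PIK3R1 and PIK3R3 rose by 0.71 and 0.51 in vehicle and by 0.95 and 0.64 under erastin. EIF4EBP1, a translation repressor that mTORC1 phosphorylates, fell by 0.83 in vehicle and 0.41 under erastin. Its interaction of siTAZ and erastin was not called (0.42, limma adjusted p = 0.799). Of 5 measured genes of the RAS and ERK chain, 1 rose and 1 fell in vehicle, and 0 rose and 1 fell under erastin. Of 17 measured inhibitors of the receptors and the pathway, 6 rose and 5 fell in both settings. DDIT4, an inhibitor of mTORC1, fell by 1.93 in each setting and rose with erastin by 1.52 in siTAZ cells and 1.52 in siNT cells. TRIB3, a pseudokinase that binds AKT, fell by 1.04 in vehicle and 0.69 under erastin, and NEDD4, a ubiquitin ligase, rose by 0.98 and 0.82. The TRIB3 interaction of siTAZ and erastin was 0.35 ± 0.07 and was not called (limma adjusted p = 0.555). It passed with an intensity trend and robust variances (limma adjusted p = 0.0312). PHLPP2, an AKT phosphatase, rose by 0.84 and 0.93. Of 15 measured FOXO factors and FOXO target genes, 6 rose and 1 fell in vehicle, and 4 rose and 1 fell under erastin. SESN1 rose by 0.83 in each setting, FOXO3 by 0.41 and 0.38, and BCL6 by 0.42 and 0.50. Of 10 measured partners of IGFBPs, a list of cell surface proteins together with the nuclear receptors VDR and RXRA, 2 rose and 2 fell in vehicle, and 2 rose and 1 fell under erastin. Both that fell in vehicle were the nuclear receptors, VDR by 0.41 and RXRA by 0.22, and under erastin these differed by -0.14 and -0.12 and were not called. Their interaction of siTAZ and erastin was not called either (VDR 0.27, limma adjusted p = 0.799, RXRA 0.10, limma adjusted p = 0.835). VDR passed under erastin with array weights (-0.22, limma adjusted p = 0.0159). The integrin subunit gene ITGA5 rose by 0.36 in vehicle and 0.33 under erastin. FOXO1, the FOXO gene that fell, differed by -0.31 in each setting. In vehicle FOXO1 lost its call without siTAZ replicate 1 or 3 or siNT replicate 1 or 2, and under erastin without any single array other than siTAZ replicate 3. ITGAV, another integrin gene, rose by 0.30 in vehicle (limma adjusted p = 0.00479), where ITGB3 differed by -0.10 and was not called. Under erastin ITGAV (0.21) and ITGB3 (-0.23) were both called. Each lost that call without siTAZ replicate 1 or 2 or siNT replicate 2 or 3. With the actin covariate ITGB3 differed there by -0.08 (limma adjusted p = 0.586), ITGAV by 0.21 (0.159), ITGA5 by 0.20 (0.19) and FOXO1 by -0.32 (0.176), and none of them passed. ITGAV did not pass under erastin with array medians centred either (0.17, 0.122).

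The genes whose profile over the 12 arrays was most like that of 3 members were read from 4655 genes with a range of at least 0.5 log2 units. These are correlations over arrays that share the same 4 groups, so any gene that differs between siTAZ and siNT cells comes near. For IGF1R 203627_at the highest were MATCAP2 and SEH1L (Pearson r = 0.99 each) and DCLK1 and NECTIN2 (0.98 each), and the lowest were MPST (-0.97) and KIF21B (-0.96). For IGF2R 201393_s_at SERINC1, SDC2, BACH1 and GPR137B reached 0.97, and SLC5A6 and IMP4 -0.98 and -0.97. For IGFBP7 201163_s_at, the probe set with more spread, PTPN13 reached 0.92 and ACTL6A, SLC12A8 and GNPTAB 0.91, and NAT10 and PAAF1 -0.95.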

How the data were processed

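Gene expression was measured in 12 RCC4 cultures, 3 per group, on Affymetrix human arrays. The deposited values are log2 signals per probe set; the submitters' processing notes name RMA in Affymetrix Expression Console. Software versions and an annotation build were not stated there. The series text describes a zero transformation against the siNT mean that the values do not show, since array medians lie between 6.48 and 6.54. RMA sets all arrays to 1 distribution, so a change shared by all genes would not be seen. Of 22277 probe sets, 62 controls, 1043 with several genes and 2108 with no gene in the platform table were left out, and 19064 were tested. A gene with more than 1 probe set (4310 of 11963) was read from the brightest outside the members. Symbols are those of the platform table, and 12 symbols whose Entrez ID is not in the RefSeq gene table were kept as given.

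Groups were compared with limma 3.58.1 in R 4.3.3, with a mean per group over all 12 arrays (8 residual and 4.12 prior degrees of freedom) and Benjamini-Hochberg adjustment over all probe sets; calls are at an adjusted p under 0.05. The code was tested on simulated data. P-values measure the spread between replicate cultures, which the submitters call biological replicates, with 3 per group limiting precision. Replicate numbers are shared between groups, but of 18 same-numbered pairs 4 correlated over 0.1 (r between -0.43 and 0.36), so they were not used as pairs in the main comparison. No batch is given in the sources used here. All probe sets of the 10 members are named. Ligands, proteases and adaptors may all be named. Of any other list, up to 4 genes called in a given comparison may be named. For likeness, the 3 members with the largest called difference in vehicle by their brightest probe set were used. Within that rule, the list genes carried through the alternatives were picked after their values were seen. Members and lists were chosen with earlier results of these data known, and serve as description. There were 11 alternatives besides leaving out each of 12 arrays.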

Additional observations from a re-analysis of the deposited data

How the results depend on the processing

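The count of called member probe sets stayed within 1.5 times of its reported value in both siTAZ comparisons. This held under the alternatives that tested probe sets singly. In the erastin comparisons and the interaction the count was 0 and stayed 0, so no ratio can be taken. The alternatives with 1 value per gene, the brightest probe set or the mean of all, had 10 member values at most. Their counts of calls were lower and are not set against the reported ones. Over members, 235 called values kept their call and 23 lost it, none with a change of sign. Over all probe sets, 2961 were called for siTAZ against siNT under erastin at an adjusted p under 0.01, against 4689. Erastin against vehicle in siNT cells had 71 calls, and 125 with a 25th percentile filter, 182 with an intensity trend and robust variances, 215 with array weights, 12 with only the 2 groups fitted, 37 with the replicate block, 26 at an adjusted p under 0.01, and 27 to 57 when 1 array was left out, lowest without siNT erastin replicate 1 and highest without siNT erastin replicate 2. In siTAZ cells the 56 calls became 155 with the trend, 132 with array weights, 34 at an adjusted p under 0.01 and 33 to 42 when 1 array was left out, lowest without siTAZ DMSO replicate 1. The interaction had 0 calls, and 3 with a second quantile normalisation, 10 with the trend, 4 with array weights and 0 to 1 when 1 array was left out (1 without siNT erastin replicate 3); at an unadjusted p under 0.05, 1163 probe sets were found. The cause was not tested. With the replicate number as a block, 8 members were called in vehicle, 8 under erastin and 0 in the other comparisons, and 4192 and 4185 of all probe sets in the siTAZ comparisons; 3 of 12 arrays correlated best with their own number. Of the named list genes, FOXO1 lost its call with the block in both settings and GAB1 and ITGB3 lost theirs under erastin. For dim probe sets, signal over background limits what can be read.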
